A study of Mus musculus with 5 samples.

Results

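Krt14 Slpi-high cells were a set of epithelial cells of mouse mammary tumors, selected on a score over 4 genes, namely Krt14, Slpi, Fxyd6 and Wisp2. The score was the mean of ln(1 + UMI per 10000) of these genes in a cell, where a UMI is 1 captured transcript molecule. The members were the 10% of cells with the highest score over all tumors pooled, 1336 of 13355 gated epithelial cells and of 30340 cells deposited. A gated cell held 2500 to 27500 gene UMIs, at most 20% of them mitochondrial, at least 5 UMIs of Epcam, Krt8 and Krt18 together, no UMI of the leukocyte gene Ptprc and at most 2 UMIs of the squamous genes Sprr1a and Klk6. The remaining 12019 gated cells, called the other epithelial cells, were the comparison within each tumor.

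All mice carried the MMTV-PyMT transgene on the FVB/N background, in which a viral promoter active in mammary epithelium drives the transgene, an oncogene of the polyoma virus. From 7 weeks of age they received 5 mg/kg intraperitoneally, 2 times a week for 6 weeks, of either the VEGF-A antibody B20-4.1.1 or an isotype mouse IgG2a, clone C1.18.4. DAPI-negative cells of 6 isotype and 9 B20-4.1.1 tumors, 1 tumor per mouse, were profiled by droplet-based sequencing in 5 pools of 3 tumors, and the tumors of a pool were told apart by 4 multiplexing oligonucleotides each. Every pool held tumors of 1 treatment (2 isotype pools, 3 B20-4.1.1 pools), so that treatment and pool cannot be told apart in any comparison of the treatments. The study sorted B20-4.1.1 tumors by how hypoxic they became. For its single-cell data it reports 6 vehicle tumors and 5 each of the low and high hypoxia kinds, more B20-4.1.1 tumors than the 9 here. The labels used here give no such class. If the 9 tumors are among those reported, the B20-4.1.1 group holds both kinds.

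The mammary epithelium has an inner luminal layer, which makes milk and expresses Krt8 and Krt18, and an outer basal, contractile layer, which expresses Krt14 and Krt5. Krt14 codes for a keratin of basal cells, Slpi for a secreted inhibitor of leukocyte proteases found in mucosal fluids, Fxyd6 for a small membrane protein that modulates the sodium pump, and Wisp2 for a secreted CCN family protein regulated by WNT signaling. Spp1, which recurs below, codes for osteopontin, a secreted phosphoprotein that binds integrins and Cd44.

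The deposited matrices held 4014509 to 23726246 gene UMIs per tumor, and 19533 cells passed the limits on UMIs and mitochondrial share. No barcode was shared by tumors of a pool, and pairs of pools shared 0 to 24 barcodes. A tumor's own oligonucleotides gave 84.3% to 97.6% of its multiplexing UMIs. B20-4.1.1 pool 2 tumor 1 had 79 gated cells and 18 members, under the 20 required of a tumor for the gene tests, and those tests therefore used 14 tumors (6 isotype, 8 B20-4.1.1).

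Because the score chose the members, the levels of its 4 genes are a description and carry no test. Values are UMIs of a gene summed over the cells of a kind in a tumor, per 10000 UMIs of those cells. Slpi (ENSMUSG00000017002) stood at 10.8 UMI per 10000 in the lowest tumor, 20.6 in the median tumor and 28.3 in the highest tumor of the 15 when members were summed, against 0.133, 0.433 and 0.702 in the other epithelial cells. Krt14 (ENSMUSG00000045545) stood at 1.82, 3.99 and 7.05 UMI per 10000 in members and at 0.123, 0.221 and 0.499 in the others. The ranges of members and others did not overlap for either gene, nor for the other two score genes. Fxyd6 (ENSMUSG00000066705) had 0.637, 1.34 and 2.50 UMI per 10000 in members against 0.0454, 0.142 and 0.310. Wisp2 (ENSMUSG00000027656) had 0.665, 1.23 and 2.15 UMI per 10000 against 0.138, 0.217 and 0.390. Wisp2 was thus the score gene with the smallest difference, a log2 fold change of 2.41 within tumors, and Slpi the one with the largest, 5.45.

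The label names 2 genes, but a member did not need both. Slpi had a UMI in 85.0% of members, Krt14 in 48.0%, Fxyd6 in 45.6% and Wisp2 in 43.9%, against 17.2%, 10.7%, 7.88% and 13.5% of the other epithelial cells. As a measure of free RNA in the droplets, T cells of the same libraries (2604 cells) had a UMI of Slpi in 3.34%, of Krt14 in 0.461%, of Fxyd6 in 0.154% and of Wisp2 in 0.614%, at a median of 4063.5 UMIs against 7147 in members. All 4 shares in members lay above this background. The score chose the members on these genes, so their shares carry no test of free RNA. Thinned to the same depth, the other epithelial cells had a UMI in 8.13%, 4.22%, 2.80% and 5.27% for these genes in the same order. T cells thinned in the same way had one in 1.80%, 0.230%, 0.115% and 0.307%. Krt14 and Slpi were both detected in 486 members (36.4%), Slpi without Krt14 in 649 (48.6%), Krt14 without Slpi in 155 (11.6%) and neither in 46 (3.44%). For 207 members Slpi was the only score gene detected, so that a single gene could place a cell in the set. The score of the lowest member was 0.675348 and that of the highest cell outside was 0.674837, with 148 members and 195 other cells within 0.05 of the limit. Of the other epithelial cells, 59.9% had a score of 0. The set is therefore the upper end of a range and not a separate group of cells.

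**Figure D1:**
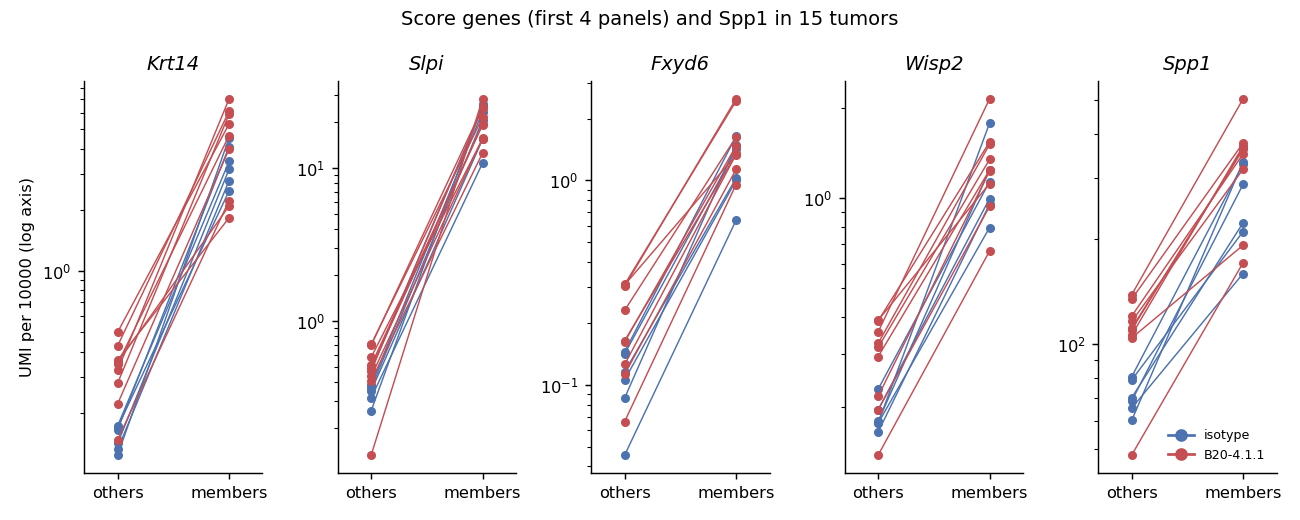
Each line joins the other epithelial cells and the members of 1 of 15 tumors, as summed UMI per 10000 on a log axis, for the 4 score genes, which chose the members, and for Spp1, which did not. All lines rise, and for Spp1 the members of all tumors (159 to 505) lie above the others of all tumors (48.0 to 138).

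The 4 score genes were often found in the same cells. Slpi and Krt14 were both detected in 762 gated cells, where independence within each tumor would give 503 (a ratio of 1.51, above 1 in 15 of 15 tumors). Over the 6 pairs the ratio ran from 1.21 for Krt14 with Wisp2 to 1.81 for Krt14 with Fxyd6, and it was above 1 in 12 to 15 tumors. These ratios are descriptions at each cell's own depth; cells with 0, 2 and 4 score genes had a median of 8180.5, 9251 and 8582.5 UMIs. When the members were chosen anew with 1 score gene left out, the left-out gene was higher in the chosen cells in 14 of 14 tumors, by 1.36 on the log2 scale for Wisp2, 2.09 for Krt14, 2.25 for Fxyd6 and 2.39 for Slpi over the pooled cells. Without Slpi in the score 57.7% of the chosen cells were the same, and without any 1 of the other genes 79.3% to 85.8%. The 4 genes were picked with these data known. Neither the ratios nor the left-out genes therefore test whether they belong together.

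The promoters of 3 genes whose transcripts shared these cells are shown because they let the genes be compared at their start sites: the secreted protease inhibitor, osteopontin and the sodium pump modulator. Each is the RefSeq stretch of 250 bases before the transcript start on the gene's own strand in GRCm38.p6, the build named mm10 by the submitters. Slpi lies on the minus strand of chromosome 2 (chr2:164356508-164356757), Spp1 on the plus strand of chromosome 5 (chr5:104434861-104435110) and Fxyd6 on the plus strand of chromosome 9 (chr9:45369935-45370184). Capitals mark matches to the motifs searched on both strands, which were ACGTG and GCGTG, cores of hypoxia response elements, TGANTCA, the AP-1 site, and TATAAA, the TATA box.
Slpi: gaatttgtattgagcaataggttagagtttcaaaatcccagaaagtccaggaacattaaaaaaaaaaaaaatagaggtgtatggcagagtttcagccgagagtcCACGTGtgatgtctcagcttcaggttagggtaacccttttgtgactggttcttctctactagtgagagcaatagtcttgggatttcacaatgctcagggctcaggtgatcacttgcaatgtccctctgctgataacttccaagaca
Spp1: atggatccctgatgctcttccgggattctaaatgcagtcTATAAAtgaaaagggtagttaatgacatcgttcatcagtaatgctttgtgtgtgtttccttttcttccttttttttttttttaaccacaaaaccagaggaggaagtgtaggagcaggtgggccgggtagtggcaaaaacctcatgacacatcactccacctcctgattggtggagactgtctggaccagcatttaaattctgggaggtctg
Fxyd6: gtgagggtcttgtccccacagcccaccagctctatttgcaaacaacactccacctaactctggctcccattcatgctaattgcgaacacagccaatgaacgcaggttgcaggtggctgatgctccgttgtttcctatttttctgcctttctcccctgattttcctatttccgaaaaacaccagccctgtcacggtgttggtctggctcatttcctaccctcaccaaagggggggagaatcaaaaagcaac
Slpi held ACGTG on both strands as 1 palindrome, whose letters overlap, 146 bases before the start. Spp1 held TATAAA 211 bases before the start, and Fxyd6 held none of the 4 motifs. Of 32851 RefSeq promoter windows of the same length, 16.6% held ACGTG, 28.2% GCGTG, 6.75% TGANTCA and 12.4% TATAAA. A match is only a match of letters, and the search did not reach beyond these 250 bases. By a different prediction method, the study reports putative binding sites of the hypoxia factor HIF1α in the mouse and human Spp1 promoters.

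The share of Krt14 Slpi-high cells among gated epithelial cells was higher in B20-4.1.1 tumors. In the isotype tumors it was 7.47%, 6.78% and 6.46% in pool 1 and 6.04%, 4.72% and 8.10% in pool 2. In the B20-4.1.1 tumors it was 14.3%, 18% and 9.93% in pool 1, 22.8%, 14.4% and 15.9% in pool 2 and 9.19%, 16.8% and 18.8% in pool 3. All 9 B20-4.1.1 tumors lay above every isotype tumor, the lowest of them being tumor 1 of pool 3. The mean was 15.6% ± 4.26 (SD, n = 9) against 6.59% ± 1.17 (SD, n = 6), a difference of 8.97 percentage points and a ratio of 2.36 (exact permutation test over tumors, two-sided p = 0.000799). With the 5 pools as units the exact permutation test gave p = 0.1, the smallest value that 2 against 3 pools allow. The pool means were 6.90% and 6.29% in isotype mice and 14.1%, 17.7% and 14.9% in B20-4.1.1 mice, which did not overlap. With every cell thinned to 2500 UMIs the share was 6.01% to 9.17% in isotype and 8.35% to 17.1% in B20-4.1.1 tumors, a difference of 6.24 points (exact permutation p = 0.0012), with 1 B20-4.1.1 tumor, tumor 1 of pool 3, inside the isotype range. The T cells held 0.106 UMI per 10000 of Slpi in isotype and 0.119 in B20-4.1.1 tumors.

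**Figure D2:**
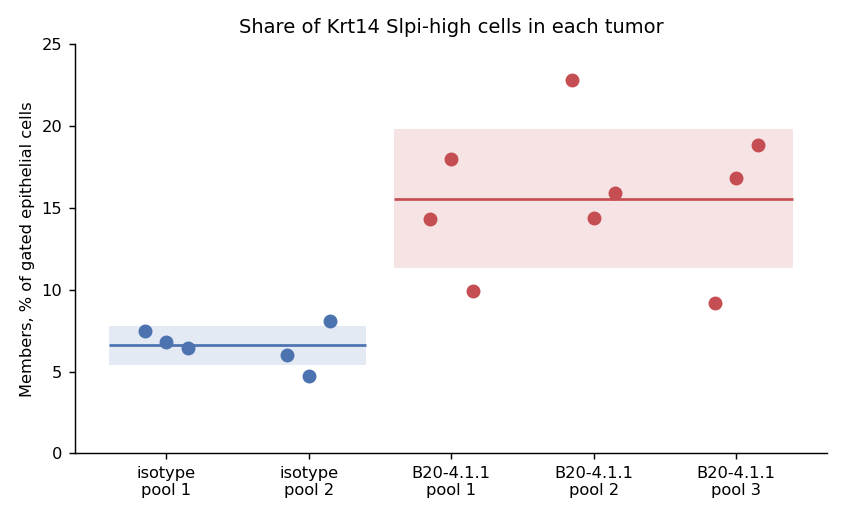
Points are the percent of gated epithelial cells that were members in each tumor, by pool; lines and bands are the mean ± SD over the 6 isotype and 9 B20-4.1.1 tumors. The isotype tumors lie between 4.72% and 8.10% and the B20-4.1.1 tumors between 9.19% and 22.8%.

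Spp1 (ENSMUSG00000029304), which the score did not use, was higher in Krt14 Slpi-high cells than in the other epithelial cells of the same tumor in 15 of 15 tumors. In isotype tumors members held 210, 287 and 159 UMI per 10000 in pool 1 and 332, 223 and 328 in pool 2. In B20-4.1.1 tumors they held 351, 317 and 192 in pool 1, 361, 364 and 505 in pool 2 and 171, 370 and 377 in pool 3. The other epithelial cells held 60.3 to 80.5 UMI per 10000 in isotype tumors. In B20-4.1.1 tumors they held 48.0 in pool 3 tumor 1 and 104 to 138 in the rest, so that the highest value of the other epithelial cells lay under the lowest member value, 159. The fitted difference was 1.72 on the log2 scale (SE 0.0817, edgeR quasi-likelihood test, adjusted p = 8.41e-15), and it lay between 1.57 and 2.02 under all 15 alternatives. T cells of the same libraries, as a measure of free Spp1 RNA, held 5.28 UMI per 10000.

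Spp1 stood higher the more score genes were detected in a cell, from 52.3 UMI per 10000 over the 7196 gated cells with none to 114 with 1, 205 with 2, 301 with 3 and 412 over the 88 cells with all 4. By the genes that placed a member in the set, Spp1 stood at 359 UMI per 10000 in the 649 members with Slpi and no Krt14, at 290 in the 486 with both, and at 141 in the 155 with Krt14 and no Slpi. Members with Krt14 alone of this pair were above the other epithelial cells in 9 of 15 tumors, against 15 of 15 for members with Slpi alone of the pair. These Krt14 cells without Slpi also held more Krt8, at 32.1 UMI per 10000 against 11.4 in Slpi cells without Krt14, and less of the acute-phase gene Hp, at 0.0594 against 1.70. The 46 members with neither gene stood at 287 UMI per 10000 of Spp1 and 1.36 of Hp, above the others for Spp1 in 11 of 13 tumors. The low levels thus belonged to the Krt14 cells without Slpi, which is described here over pooled cells with no test. In all, members held 11.3% to 49.2% of a tumor's Spp1 UMIs in gated cells, while they held 3.84% to 22.9% of the UMIs of all genes.

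Across all genes, 10309 were tested between members and other epithelial cells within tumor, and 3125 passed an adjusted p of 0.05 (30.3%, the share against which the counts below are read). Of these, 1620 were higher (15.7%) and 1505 lower (14.6%) in members, with a median log2 fold change over all genes of -0.0017. A log2 difference of at least 1 was reached by 278 of the higher and 177 of the lower genes. The same sign in every fitted tumor was seen for 227 higher and 414 lower genes. The genes named next are those with the largest differences among these, and each kept its call under all 15 alternatives.

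The genes named as higher in Krt14 Slpi-high cells included several for secreted and surface proteins. Anxa8, a membrane-binding annexin, had 0.220, 0.513 and 1.71 UMI per 10000 in the lowest, median and highest tumor in members against 0.0397, 0.0685 and 0.200 in the others, ranges that did not overlap (log2 3.10, SE 0.101). Angptl4, a secreted inhibitor of lipoprotein lipase and a gene induced by hypoxia, had 0.383, 0.797 and 1.65 against 0.0263, 0.121 and 0.270, again with no overlap (log2 2.94, SE 0.181). Cd200, an immunoglobulin-family ligand that dampens myeloid cells through its receptor, had 0.744, 0.954 and 1.57 against 0.107, 0.320 and 0.459 with no overlap (log2 1.81, SE 0.0829). Tcim, a small transcriptional regulator linked to WNT signaling, had 2.56, 3.65 and 5.06 against 0.832, 1.36 and 1.86 with no overlap (log2 1.57, SE 0.0562). All 4 genes were higher in members in 15 of 15 tumors.

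Hp, coding for haptoglobin, which binds free hemoglobin, had the largest difference, 3.41 on the log2 scale (SE 0.256, edgeR adjusted p = 5.77e-11), with 0.162, 1.68 and 3.94 UMI per 10000 in members and 0.0421, 0.115 and 0.593 in the others. Its ranges overlapped between tumors although it was higher in 15 of 15, and it was carried by few cells, with a UMI in 7.35% to 24.6% of a tumor's members and 14.4% to 67.4% of a tumor's UMIs in a single member. Lgals3, coding for galectin-3, a lectin that binds glycans on immune and tumor cells, had 2.65, 6.68 and 10.3 UMI per 10000 against 0.902, 1.49 and 4.31 (log2 1.76, SE 0.0762) and was higher in 15 of 15 tumors. Aebp1, a secreted protein of the matrix, had 0.117, 0.540 and 0.869 against 0.0215, 0.106 and 0.487 (log2 2.84, SE 0.166). Wfdc2, a protease inhibitor of the same domain family as Slpi, had 0.658, 1.42 and 3.81 against 0.132, 0.342 and 4.11 (log2 2.25, SE 0.200). These 2 genes were higher in members in 14 of 15 tumors.

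The remaining genes named as higher had log2 differences from 1.58 to 1.86. They were Timp1, an inhibitor of matrix metalloproteinases (1.86), Tpm2, a tropomyosin of contractile and basal cells (1.84), Ecm1, a secreted matrix glycoprotein (1.72), Cyp2d22, a cytochrome P450 (1.58), and Crip1, a LIM domain protein (1.58). Crip1 was the most abundant of these in members, at 6.69, 15.8 and 34.3 UMI per 10000 against 3.20, 4.48 and 15.8 in the others.

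**Figure D3:**
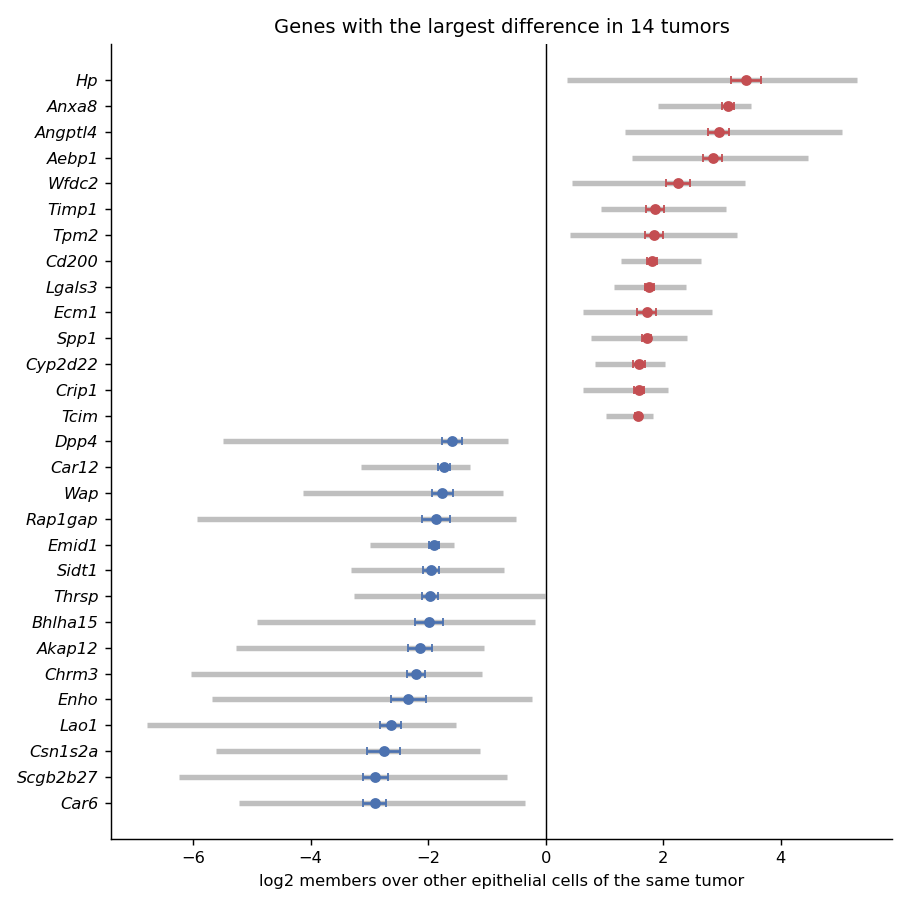
Points and error bars are the fitted log2 difference of members over other epithelial cells and its SE for the named genes, and gray bars span the differences of the 14 single tumors. All gray bars lie on 1 side of 0, the rule by which the genes were named, and the fitted values run from -2.91 for Car6 to 3.41 for Hp.

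The genes named as lower in Krt14 Slpi-high cells included secreted proteins and genes of secretory cells. Car6, a secreted carbonic anhydrase, stood at 0.0433, 0.110 and 0.913 UMI per 10000 in members and at 0.527, 1.28 and 2.93 in the others, and was lower in 15 of 15 tumors (log2 -2.91, SE 0.191). Scgb2b27, a secretoglobin, stood at 0.135, 0.498 and 0.913 against 1.41, 4.43 and 10.2, with no overlap (log2 -2.90, SE 0.214). Emid1, coding for a secreted EMI domain protein, stood at 0.149, 0.491 and 0.736 against 1.47, 2.00 and 2.34, with no overlap (log2 -1.89, SE 0.0851). Dpp4, a surface peptidase, stood at 0, 0.0497 and 0.105 against 0.143, 0.181 and 0.240, also with no overlap (log2 -1.6, SE 0.173). Of these genes, Scgb2b27 was the most abundant in the other epithelial cells.

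Milk genes were among the lower genes. Csn1s2a, a casein, had a log2 difference of -2.76 (SE 0.278) and was lower in members in 14 of 15 tumors, with 0, 0.130 and 2.35 UMI per 10000 against 0.0295, 0.795 and 13.6. Wap, coding for whey acidic protein, had 0.0903, 0.642 and 2.10 against 0.888, 2.43 and 17.2 and was lower in 15 of 15 tumors (log2 -1.76, SE 0.183). Lao1, coding for an amino acid oxidase found in milk, was lower by a log2 of -2.64, Bhlha15, a transcription factor of secretory cells, by -1.98, and Thrsp, a regulator of lipid synthesis in the lactating gland, by -1.97. The other named genes were Enho (-2.34), Chrm3, a muscarinic receptor (-2.20), Akap12, a scaffold of kinase signaling (-2.13), Sidt1 (-1.95), Rap1gap, which inactivates the GTPase Rap1 (-1.87), and Car12, a membrane carbonic anhydrase (-1.73).

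Gene lists were read by their counts beside the 15.7% of all genes higher and 14.6% lower. Unless stated, counts are over the genes of a list measured well enough to test, which can be fewer than the list holds. Of 12 milk protein genes tested, 9 were lower and 1 was higher, with a median of -1.02 on the log2 scale. Csn2 (-2.91), Pip (-3.97) and Glycam1 (-5.65) had the strongest differences beside Csn1s2a, although Glycam1 was at 0 in the median tumor of members and at 0.0137 UMI per 10000 in that of the others. The exception was the surface mucin Muc1 (0.46). Of 18 genes of lipid synthesis, 8 were lower and 1 was higher, with a median of -0.14, including Scd2 (-0.87), Fasn, the fatty acid synthase (-0.69), and its regulator Srebf1 (-0.69).

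Of 21 innate defense and acute-phase genes tested, 18 were higher and 1 was lower in members, with a median log2 of 0.99. Wfdc12, a relative of Slpi, had 0.476, 2.76 and 13.3 UMI per 10000 in members against 0.0442, 0.244 and 0.920 (log2 3.33, SE 0.349), higher in 14 of 15 tumors. C3, the central complement component, had 0.361, 0.682 and 1.49 against 0.115, 0.207 and 0.405 (log2 1.54, SE 0.114), and Clu, the chaperone clusterin, had 7.47, 12.0 and 22.4 against 3.30, 5.13 and 10.3 (log2 1.27, SE 0.0519). C3 and Clu were higher in 15 of 15 tumors, with ranges that overlapped between tumors. The exception was Pigr, the receptor that carries immunoglobulin A across epithelia (-0.99). Of 21 protease inhibitors, 13 were measured well enough to test. Of these, 8 were higher and 0 lower, with a median of 0.30, led by Timp1, Timp3 (1.79) and Serpinb5, the inhibitor maspin (0.77). Others in the list went the other way without a call. Serpinb6b was lower in members in 15 of 15 tumors, and Serping1 was lower in 11 and higher in 1.

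Apart from Krt14, the defining markers of basal cells were at or near 0 in members. Krt5, the partner of Krt14 in basal cells, had no UMI in members of 12 of 15 tumors and at most 0.0980 UMI per 10000. Acta2, the smooth muscle actin of myoepithelium, was at 0 in the median tumor of members, and Myh11 was at 0 in all 15. Trp63, the basal transcription factor, stood at 0, 0.0461 and 0.245 UMI per 10000 against 0.0233, 0.0524 and 0.0939 (log2 0.39, edgeR adjusted p = 0.285). Of 15 basal and myoepithelial genes, 7 were measured well enough to test, of which 4 were higher (Krt17, Tagln, Tpm2 and Cav1) and 1 was lower (Nrg1). Krt17 had a log2 of 2.23 but was higher in 9 of 14 tumors, Tagln and Cav1 were each higher in 7 of 14, and Tpm2 was higher in 14 of 14. DESeq2 called 1 of 15 higher, and 2 of 5 were higher without isotype pool 2. The luminal keratins Krt8 and Krt18 were part of the gate and are given with no test, at 16.7 and 22.6 UMI per 10000 in the median tumor of members against 11.4 and 17.5 in that of the others.

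Of 11 luminal progenitor and alveolar genes, 4 were higher and 4 lower, with a median of -0.10. The higher ones were Aldh1a3, an aldehyde dehydrogenase of progenitors (1.56), Cd14, a lipopolysaccharide co-receptor (1.24), Ltf, lactoferrin (0.67), and Kit, a receptor tyrosine kinase (0.41). Among the lower ones were Hey1, a Notch target (-0.40), and Elf5, a transcription factor of alveolar cells (-0.25). Of 11 hormone-sensing genes, 2 were higher and 1 was lower, among them Ly6a (1.49) and the transcription factor Gata3 (-0.33). Of 4 other keratins tested, Krt7 (1.23) and Krt19 (0.88), both of simple epithelia, were higher and 1 was lower. Of 25 squamous genes, 13 were measured well enough to test. Of these, 9 were higher and 0 lower (5 of 11 higher without isotype pool 1), with a median of 0.83, although the gate had removed cells with more than 2 UMIs of Sprr1a and Klk6. The abundant ones were Sfn, the epithelial 14-3-3 protein (0.76), and the secreted Dmkn (0.56) and Sbsn (0.41). Ivl, Sprr2d, Sprr2h and Sprr3 had no UMI in members or in others in 15 of 15 tumors. Krt6a was higher in members in 5 tumors and lower in 7, and Krt16 higher in 5 and lower in 8.

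**Figure D4:**
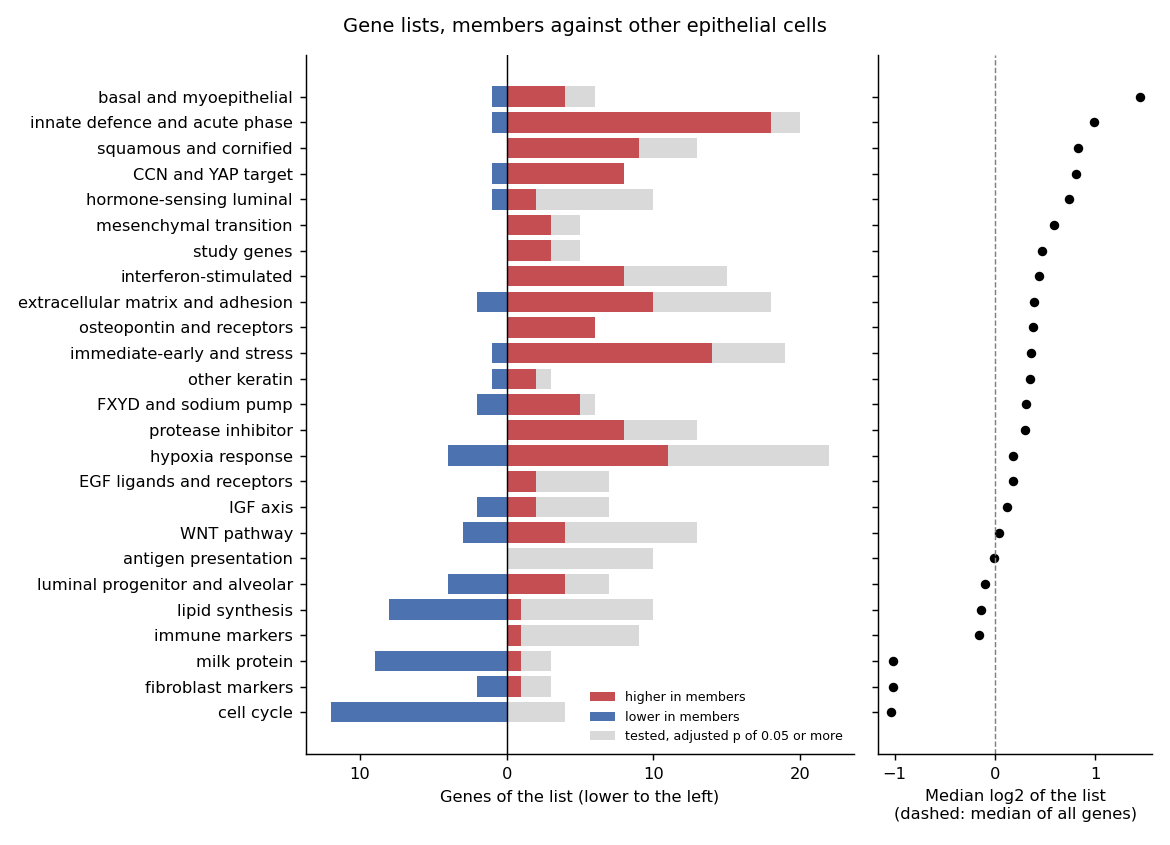
Left, bars count the tested genes of each list that were higher (right of 0, red), lower (left of 0, blue) or at an adjusted p of 0.05 or more (gray); right, points are the median log2 difference of each list. Innate defense, with 18 of 21 genes higher, and cell cycle, with 12 of 16 genes lower, are the longest bars to the right and to the left.

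Of 9 CCN and YAP target genes, 8 were higher and 1 lower, with a median log2 of 0.81. Ctgf, a secreted CCN protein like Wisp2, had 0.172, 0.782 and 1.39 UMI per 10000 in members against 0.0374, 0.209 and 0.829 (log2 1.63, SE 0.265), higher in 14 of 15 tumors. Amotl2 (0.81), Tead1, the DNA-binding partner of YAP (0.72), and Cyr61 (0.65) were also higher, and Yap1 itself was lower (-0.26). Of 16 WNT pathway genes, 4 were higher and 3 lower, with a median of 0.04. The ligand Wnt5b stood at 0.444, 0.662 and 0.954 UMI per 10000 against 0.259, 0.351 and 0.436, with no overlap (log2 1.03, SE 0.0703), the secreted antagonist Sfrp1 was higher by 0.66, and the cyclin Ccnd1 was lower (-1.56). The sodium pump list, which held the relatives of Fxyd6, had 5 of 8 tested genes higher and 2 lower. Atp1b3, a subunit of the pump (0.55), and Fxyd3 (0.46) were higher and the water channel Aqp5 (-1.46) was lower.

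Of 6 tested genes of osteopontin and its receptors, 6 were higher and 0 lower, with a median log2 of 0.38. This count fell to 2 of 6 with cells thinned to 2500 UMIs (median 0.13) or without B20-4.1.1 pool 3, and to 3 of 6 without isotype pool 1, without B20-4.1.1 pool 1 or without cells holding other-lineage UMIs. Beside Spp1 they included Cd44 (0.54) and the integrin subunits Itgb3 (0.44) and Itgb5 (0.32). Cd44 stood at 0.199, 0.693 and 1.3 UMI per 10000 in members against 0.297, 0.503 and 0.720, ranges that overlapped widely. Of 20 matrix and adhesion genes, 10 were higher and 2 lower, the tight junction gene Cldn4 (0.64) and the laminin subunit Lamb3 (0.49) among the higher and the collagens Col9a1 (-1.54) and Col9a2 (-0.79) as the lower ones. Of 14 genes of mesenchymal transition, 5 were measured well enough to test. Of these, 0 were lower and 3 were higher, among the latter the membrane metalloproteinase Mmp14 (1.5). Vim, coding for vimentin, had a difference of 0.26 (edgeR adjusted p = 0.157). Others in the list went the other way without a call. Zeb2 was lower in members in 14 tumors and higher in 1, Zeb1 lower in 10 and higher in 3, and Snai2 lower in 10 and higher in 4. Snai1 was higher in 12 and lower in 3. Of 5 tested genes among the checkpoint and immunosuppressive genes of interest to the study, Lgals3, Lgals9, coding for galectin-9 (0.65), and Tgfb1 (0.47) were higher.

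Of 15 interferon-stimulated genes, 8 were higher and 0 lower, with a median log2 of 0.44, led among the abundant ones by the transcription factor Irf7 (0.77) and the ubiquitin-like Isg15 (0.62). Of 10 antigen presentation genes tested with edgeR, 0 passed and 6 had an unadjusted p under 0.05, with differences from -0.48 for H2-Aa to 0.19 for Tapbp. Of 13 tested with DESeq2, 0 passed and 4 had an unadjusted p under 0.05, while edgeR called 1 of 10 higher with thinned cells and 3 of 10 with the top 10% within each tumor as members. Of 20 immediate-early and stress genes, 14 were higher and 1 was lower, with a median of 0.36, including the small heat shock protein Hspb1 (1.02), the phosphatase Dusp1 (0.84) and, as the lower one, Nr4a1 (-0.53). Hbegf, a ligand of the EGF receptor, was higher by 1.4 as 1 of 2 higher genes of 7 tested in its list of 10. Egf, of the same list, was lower in members in 15 of 15 tumors without a call. Igfbp7, a secreted IGF-binding protein, was higher by 1.49, and of 9 genes tested in its list of 12, 2 were higher and 2 lower. With thinned cells the higher genes numbered 5 of 12 for interferon, 6 of 14 for matrix and adhesion, 3 of 8 for the sodium pump, 2 of 12 for WNT and 1 of 4 for mesenchymal transition, and the lower genes 5 of 15 for lipid synthesis. Without isotype pool 2, 9 of 20 immediate-early and stress genes were higher, and without B20-4.1.1 pool 1, 1 of 5 of mesenchymal transition.

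Cell cycle genes were lower in Krt14 Slpi-high cells. Of 16 tested, 12 were lower and 0 higher, with a median log2 of -1.04, among them Birc5, coding for survivin (-1.84), and the proliferation marker Mki67 (-1.47). Without cells that held 3 or more UMIs of other lineages, 6 of 14 were lower. The summed level of the list was lower in members in 13 of 14 tumors, at 1.21, 1.45 and 5.89 UMI per 10000 in the lowest, median and highest tumor against 1.36, 3.29 and 4.95 in the others. The mean log2 ratio was -0.88 ± 0.70 (SD, n = 14; exact sign-flip permutation test, two-sided p = 0.0011, adjusted over 2 tests p = 0.0022). The exception was isotype pool 1 tumor 2, with 5.89 against 3.20, where 1 member held 25.6% of the UMIs of the list. The mean of this ratio was -0.73 over isotype and -0.999 over B20-4.1.1 tumors, a difference within its spread between tumors (exact permutation test, p = 0.524).

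The hypoxia score, the mean of ln(1 + UMI per 10000) of Vegfa, Slc2a1 and Car9 in cells thinned to 2500 UMIs, differed between members and others by less than its spread over tumors. It was 0.0653, 0.135 and 0.235 in members in the lowest, median and highest tumor against 0.0864, 0.116 and 0.162 in the others, higher in 11 of 14 tumors. The mean difference was 0.0151 ± 0.0446 (SD, n = 14; exact sign-flip permutation test, two-sided p = 0.242), and it turned negative with the top 5% of cells as members (-0.0170). Without isotype pool 1 it was 0.0249 (exact sign-flip permutation p = 0.0488). Over isotype tumors it was -0.00515 and over B20-4.1.1 tumors 0.0304, higher in 4 of 6 and in 7 of 8 (difference 0.0355, exact permutation p = 0.152). Of 26 hypoxia response genes, 11 were higher and 4 lower, with a median log2 of 0.18, and with thinned cells 4 of 24 were higher and 4 lower. Higher were Angptl4 (2.94), Hilpda, a regulator of lipid droplets (0.66), Vegfa (0.52) and Ndrg1 (0.49), and lower were Car12 (-1.73), the oxygen sensor Egln3 (-0.74), Pdk1 (-0.37) and Ldha (-0.23). These genes thus did not move one way.

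Markers of other cell types and depth were set beside these results. Immune markers summed to 0.810 to 11.9 UMI per 10000 in members of isotype tumors and 1.34 to 5.29 in those of B20-4.1.1 tumors, against 1.06 to 2.09 and 1.58 to 4.30 in the others. The highest value, in isotype pool 1 tumor 1, came from 716 UMIs of which 1 cell held 456, and S100a8, a calcium-binding protein of neutrophils and stressed epithelium, was the only 1 of 9 tested immune markers to pass the test (1.15). Fibroblast markers summed to at most 0.686 UMI per 10000 in members and endothelial markers to at most 0.0994. Of the markers of other cell types, Lum, Cdh5, Cldn5, Emcn, Rgs5 and Adipoq had 0 UMIs in members, but others were present. Of 5 fibroblast markers tested, 1 was higher and 2 were lower in members. Col1a1 was higher in 11 tumors and lower in 3, and Col1a2 higher in 1 and lower in 10. Over pooled cells, immune markers stood at 3.52 UMI per 10000 in members against 1.98, and erythroid markers at 0.0688 against 0.0263. Members had a median of 7147 UMIs, 2325 genes and 2.44% mitochondrial UMIs against 8890, 2713 and 3.90% in the others, with fewer UMIs in 13 of 15 tumors and a lower mitochondrial share in 15 of 15. With every cell thinned to 2500 UMIs, 1436 of 7357 genes were called between members and others. The part of depth and mitochondrial share in the gene differences was not tested beyond this.

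Krt14 Slpi-high cells overlapped little with the milk, Scgb2b27 and lipogenic ends of the same epithelium. Each of these ends was the top 10% of the same gated cells by its own score, so unrelated sets would share about 10% of their cells. Of the 1336 cells with the highest score over Wap, Csn2 and Csn3, 47 were members (3.52% of each set). For a score over Scgb2b27, Aqp5 and Col9a1 the overlap was 3 cells (0.225%), and for Thrsp, Fasn and Scd1 it was 37 cells (2.77%).

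Within Krt14 Slpi-high cells, B20-4.1.1 and isotype tumors differed in 308 of 7052 genes tested (4.37%), of which 141 were higher (2%) and 167 lower (2.37%) in B20-4.1.1 tumors. DESeq2 called 423, 255 higher and 168 lower. This count depended on the pools, with 3 genes left by voom with the pool as a random block (Mdh1, Pgk1 and Tpi1, named after their values were seen, because they were so few) and 24 with sums per pool. Left without isotype pool 1 it was 8, without B20-4.1.1 pool 2 it was 56, without B20-4.1.1 pool 3 it was 10, and without isotype pool 2 it was 2168. Each treatment difference below therefore also carries the difference between the pools. The ranges given for the treatments in members are over the 14 fitted tumors, without the 18 members of B20-4.1.1 pool 2 tumor 1.

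Pgk1, a glycolytic enzyme induced by hypoxia, stood at 0.981, 1.49 and 1.77 UMI per 10000 in the lowest, median and highest isotype tumor and at 1.99, 3.18 and 4.07 in B20-4.1.1 tumors, with no overlap (log2 1.19, SE 0.170, edgeR adjusted p = 0.00137). Tpi1, of the same pathway, stood at 1.98, 2.62 and 2.83 against 3.44, 4.4 and 4.96 with no overlap (log2 0.85, SE 0.122). Bnip3, a mitochondrial protein of hypoxic cells, stood at 0.183, 0.307 and 0.368 against 0.373, 0.660 and 0.874 with no overlap (log2 1.22, SE 0.212). The other epithelial cells of the same tumors held 1.33 to 1.75 against 1.86 to 3.06 UMI per 10000 of Pgk1, so that the same order was seen outside the members. Of 24 hypoxia response genes tested, 7 were higher and 0 lower in B20-4.1.1 members, with a median log2 of 0.55 against -0.02 over all genes. Without isotype pool 1, 3 of 26 were higher, and with pool as a random block 2 of 24.

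Of 11 interferon-stimulated genes, 7 were higher in B20-4.1.1 members and 0 lower, with a median log2 of 1.26. The count was 0 without isotype pool 1 (edgeR, 10 of 13 at an unadjusted p under 0.05), 0 without B20-4.1.1 pool 3 (7 of 11) and 0 in voom with the pool as random block (8 of 11). Irf7 stood at 0.162, 0.537 and 0.85 UMI per 10000 in isotype members and at 0.759, 1.35 and 3.78 in B20-4.1.1 members (log2 1.63, SE 0.321, edgeR adjusted p = 0.0156). Xaf1 stood at 0.0540, 0.231 and 0.323 against 0.249, 0.563 and 1.54 (log2 1.81, SE 0.343). Both overlapped between the treatments, and without B20-4.1.1 pool 3 neither passed the test (edgeR adjusted p = 0.0822 and 0.0817). The same order was seen outside the members. The other epithelial cells held 0.251 to 0.446 UMI per 10000 of Irf7 in isotype and 0.440 to 1.86 in B20-4.1.1 tumors. For Xaf1 they held 0.123 to 0.225 against 0.232 to 0.888, with no overlap. Ifi27l2a (2.07), Bst2 (1.51) and Isg15 (1.48) were also higher. Beside them stood Fxyd5, a relative of Fxyd6 (1.62), Pla2g7, a secreted phospholipase (1.31), and the kinase Dyrk3 (1.29).

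Lower in B20-4.1.1 members were Csn1s1, a casein (-2.20), the mammary noncoding RNA Pinc (-1.83), Prlr, the prolactin receptor (-1.70), and Btn1a1, a protein of milk fat globules (-1.3). Prlr stood at 1.03, 1.97 and 8.15 UMI per 10000 in isotype members and at 0.639, 0.845 and 1.3 in B20-4.1.1 members (SE 0.340, edgeR adjusted p = 0.0162). The tumor left out held 5.07, and with it in the fit the Prlr difference was -1.29 (edgeR adjusted p = 0.0705). Fxyd2, Slc7a2 and Pogk, which follow, also lost their calls with it. The others were Fxyd2 (-2.98), the cationic amino acid transporter Slc7a2 (-1.51), Pogk (-1.33) and the lysosomal enzyme Ids (-1.23), of which Ids had ranges that did not overlap. All 16 genes named here kept their direction in every alternative that fitted them, but each lost its call in at least 1 of these. Lgals3 (0.89) and Lgals9 (0.99) were higher in B20-4.1.1 members. Spp1 in members had a difference of 0.42 (SE 0.216, edgeR adjusted p = 0.238), with 159, 255 and 332 UMI per 10000 in isotype tumors and 171, 358 and 505 in B20-4.1.1 tumors, which overlapped. Without isotype pool 2 the Spp1 difference was 0.75 (edgeR adjusted p = 0.035), without isotype pool 1 it was 0.18 (0.896), and without B20-4.1.1 pool 2 it was 0.26 (0.529). The other epithelial cells held 60.3 to 80.5 UMI per 10000 of Spp1 in isotype tumors. In B20-4.1.1 tumors they held 104 to 138, except for 48.0 in pool 3 tumor 1, and this difference was not tested.

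**Figure D5:**
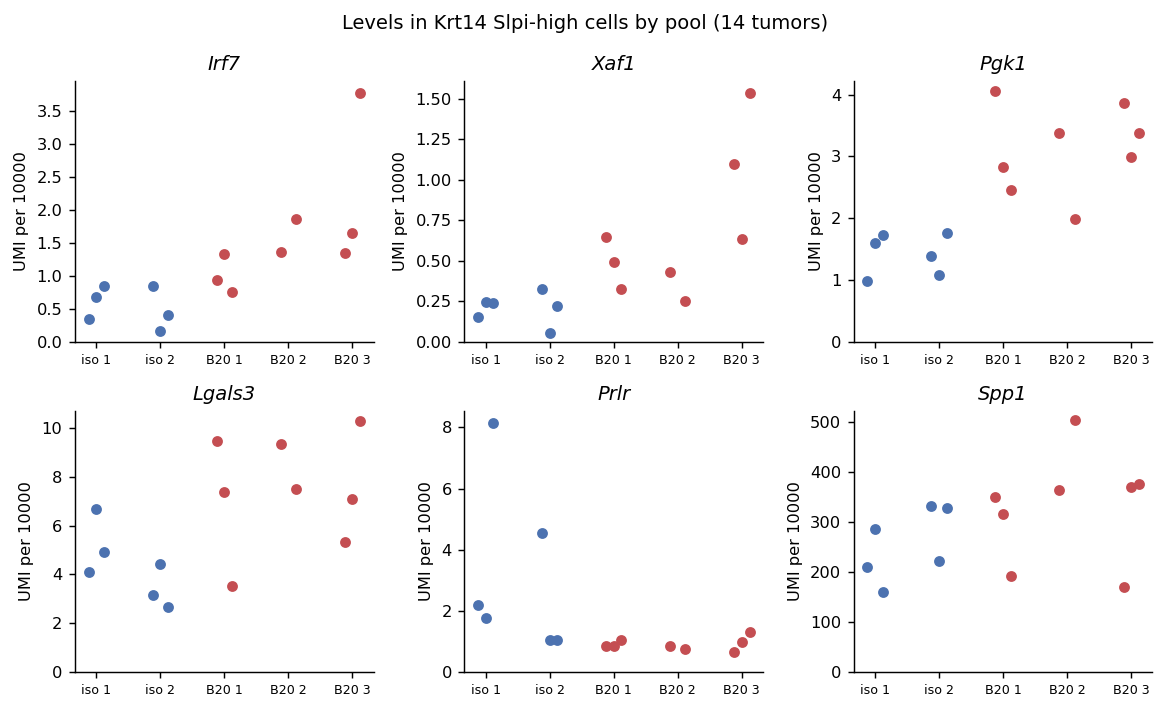
Points are the summed UMI per 10000 of 6 genes in the members of single tumors (14 tumors with at least 20 members), by pool (iso, isotype; B20, B20-4.1.1). Pgk1 separates the treatments at 1.77 and 1.99, while Spp1 overlaps (159 to 332 against 171 to 505) and Irf7 is highest in 1 tumor of B20-4.1.1 pool 3 (3.78).

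The treatment difference in members was then set against that in the other epithelial cells of the same tumors, a contrast in which a shift shared by both kinds of cells of a tumor cancels. Of 10309 genes, 5 passed (0.0485%), 0 higher (0%) and 5 lower (0.0485%) in members relative to the others, with 798 at an unadjusted p under 0.05. DESeq2 called 4 of 21400. Angptl4 stood at 0.383, 0.976 and 1.65 UMI per 10000 in isotype members and at 0.506, 0.703 and 1.27 in B20-4.1.1 members, while the other epithelial cells went from 0.0263, 0.0854 and 0.175 to 0.0629, 0.151 and 0.270 (difference of differences -1.28 on the log2 scale, SE 0.241, edgeR adjusted p = 0.0316). Wfdc17, a further member of the Slpi domain family, stood at 0.615, 1.61 and 2.32 in isotype members and at 0.207, 0.496 and 1.77 in B20-4.1.1 members (-2.01, SE 0.304, edgeR adjusted p = 0.00272). The tumor left out held 2.39, above every isotype tumor, and with it in the fit the Wfdc17 difference was -1.85 (edgeR adjusted p = 0.0176). Wfdc17 UMIs came from few cells, since 9.21% to 16.3% of isotype members had any and a single cell held 32.1% to 61.4% of a tumor's UMIs. Areg (-4.73), Fam25c (-5.26) and Krtdap (-9.51) are named after their values were seen because only 5 genes passed, and they rested on few cells. For Krtdap, 1 member each of 2 isotype tumors held all 77 and all 175 UMIs of its tumor's members, and for Areg a single member held 57.3% to 100% of the UMIs in each isotype tumor that had any. Angptl4 kept its call in 7 of 15 alternatives and Wfdc17 in 12. The same contrast for Spp1 was -0.22 (SE 0.155, edgeR adjusted p = 0.808).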

How the data were processed

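The deposited files were 15 filtered matrices of whole-number UMI counts, 1 per tumor, which the authors made with Cell Ranger (6.1.2 in the matrix headers) on mm10, demultiplexing each pool by its multiplexing oligonucleotides; they used Seurat 4.3.0 downstream. The matrices held 31053 genes and 12 multiplexing features, which were left out of gene totals. Multiplexing, the maximum on UMIs and the absence of Ptprc limited doublets, and no doublet caller was run. The free RNA reference was cells with at least 2 UMIs of Cd3 genes and at most 2 UMIs of the epithelial gate genes.

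Members and gene lists were chosen with earlier results of these data known. UMI counts were summed per tumor and kind of cell where both kinds had at least 20 cells, and tested with edgeR 4.0.16 (quasi-likelihood, TMM factors, filterByExpr) with tumor as a term for members against others and for the difference of treatment effects, and with treatment alone in members. P-values were adjusted by Benjamini-Hochberg over all genes, with 0.05 as threshold. Single values per tumor were compared with two-sided exact permutation tests over tumors. Between treatments, the spread these tests measure holds that between mice and that between pools, which they do not separate. Between members and others, signs of the differences within tumors were flipped, and the spread is that of these differences. Alternatives were cells thinned to 2500 UMIs, the top 5% and 20%, the top 10% within each tumor, cells with 3 or more UMIs of other lineages left out, a minimum of 10 cells, DESeq2 1.42.0, its size factors in edgeR, no filter, sums per pool, voom with pool as a random block (limma 3.58.1) and each pool left out in turn. Scripts were tested on simulated data. R 4.3.3, Python 3.11.15, numpy 2.4.6, pandas 2.3.3 and scipy 1.17.1 were used.

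Genes were named by size of the log2 fold change among those called with an average log2 CPM of at least 4, passing over score and gate genes, unnamed models, and mitochondrial and ribosomal genes. Up to 15 per direction with the same sign in every tumor were named for members against others, up to 8 per direction with separate pool means for the treatment, up to 5 per direction for the difference of effects, and up to 4 examples per direction from each list; 1 gene that met this rule is not reported here. UMIs are counts of molecules, and their totals, 4014509 to 23726246 per tumor, set the precision.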

Additional observations from a re-analysis of the deposited data

Results flagged for a closer look

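Among 110 groups of 6, 8 or 9 tumors checked for a value far from the others (Dixon's criterion), 18 had one, where chance flags about 1 in 20 groups. All values here are UMI per 10000 in Krt14 Slpi-high cells, and those of single genes leave out B20-4.1.1 pool 2 tumor 1 with its 18 members. That tumor held 2.39 of Wfdc17 and 2.44 of Fxyd6, so that with it neither of the values given for these genes stands apart. In isotype tumors they were Csn1s1 at 11.9 in pool 2 tumor 3, Dyrk3 at 0.183 in pool 1 tumor 1 and Tpm2 at 1.94 in pool 1 tumor 3. B20-4.1.1 pool 3 tumor 3 stood apart with the interferon-stimulated genes Irf7 at 3.78, Isg15 at 5.23, Bst2 at 4.88 and Ifi27l2a at 2.93, and with Wfdc17 at 1.77 and Csn1s2a at 0.325. B20-4.1.1 pool 3 tumor 1 stood apart with the secretory genes Car6 at 0.913, Lao1 at 0.548, Thrsp at 3.77 and Wap at 2.05. The others were Anxa8 at 1.71 in B20-4.1.1 pool 1 tumor 1, Fxyd6 at 2.50 and Enho at 0.0577 in B20-4.1.1 pool 2 tumor 2, and Chrm3 at 0 and Sidt1 at 0.249 in B20-4.1.1 pool 2 tumor 3.

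The treatment effect differed between members and other epithelial cells, by the interaction term in edgeR, for Areg (-4.73), Wfdc17 (-2.01), Krtdap (-9.51), Fam25c (-5.26) and Angptl4 (-1.28), on the log2 scale.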

How the results depend on the processing

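No paired analysis was possible because the replicate numbers of the pools were given in accession order and each pool held separate mice of 1 treatment. The share difference was 8.97 points with pool means as units (exact permutation p = 0.1) and 7.90 to 9.72 with a pool left out. The hypoxia score difference was -0.0170 with the top 5% and -0.00298 with the top 10% within each tumor, and 0.00861 to 0.0249 with a pool left out. Thinned cells gave 1436 of 7357 genes between members and others, and all 30 genes that met the naming rule there kept their direction and call in 450 of 450 refits. Genes between treatments in members numbered 130 of 3424 with thinned cells, 189 of 4829 with the top 5% and 560 of 9349 with the top 20%. They numbered 24 of 10088 with sums per pool, 3 of 7052 with voom, and 8 to 2168 with a pool left out. The 16 genes named there kept their direction, and 147 of their refits kept and 86 lost the call. Genes whose treatment effect differed numbered 27 of 12114 with the top 5%, 13 of 11416 with the top 20% and 26 of 11142 with the top 10% within each tumor. They numbered 2 of 9725 without other-lineage cells (Areg and Krtdap), 155 of 21400 with no filter, 37 of 11817 with sums per pool and 3 to 23 with a pool left out. For Spp1 that difference was -0.44 to 0.017 with a pool left out, positive only without isotype pool 2. The causes were not tested. The 14 tested tumors held 25 to 179 members each, and the part of this number in the counts was not tested.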
